A study of Mus musculus with 17 samples.

Results

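Ly6C low macrophages of regenerating muscle were compared between day 4 and day 2 after injury. The mice were DBA/2J males, 3 months old, and the cells were sorted from their tibialis anterior after cardiotoxin, a snake venom toxin, had destroyed its fibres. The Ly6C low groups hold 3 samples on each day, out of 17 samples in 6 groups. The other groups are neutrophils of day 1 and Ly6C high macrophages of days 1, 2 and 4, and all groups share strain, sex, age, muscle and toxin. How many animals went into a sample is not given in the labels. By its title, the series belongs to work on PPARγ, a lipid-sensing nuclear receptor, and macrophage polarization. The authors' table holds 1 value per gene and group, the mean of log2 normalised reads, and no values of single samples. A difference below is therefore the day 4 mean minus the day 2 mean on the log2 scale, with no standard deviation and no test, and whether it exceeds the spread between samples is not known. Genes were compared when either column held a log2 value of 5 or more, which 11824 of 38087 genes did.

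Ly6C high monocytes enter damaged muscle first, clear debris and release inflammatory mediators. They turn into Ly6C low macrophages, which go on taking up dead cells, send growth signals to muscle progenitors and fibroblasts, and largely replace the inflammatory cells as new fibres form. Interferon responses, antigen presentation on MHC class II, uptake of apoptotic cells and cholesterol export are all programmes that macrophages can switch on along the way.

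Between the days, 1091 of the 11824 genes (9.23%) were at least 2-fold higher on day 4 and 255 (2.16%) were at least 2-fold lower. The median difference over all genes compared was 0.03, with quartiles of -0.31 and 0.39, and 65.6% of genes lay within 0.5 of 0. Most genes were thus at similar levels on both days, and the larger differences lay mainly on the side of day 4. Differences of at least 4-fold were seen in 343 genes upwards and 51 downwards, and of at least 16-fold in 113 and 6. Among the genes 2-fold apart, 81.1% were higher on day 4. This share was 69.0% (898 higher, 403 lower) after quantile normalization of the macrophage columns. Of the genes 2-fold higher, 486 (44.5%) were under a log2 value of 5 on day 2, and 8 were listed at 0 there. A value of 5 stood for about 66.9 reads per library on day 2 and 74.6 on day 4 and the counting error of such a mean was about 0.102 and 0.096 on the log2 scale.

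The threshold itself held no step. Among the 323 genes whose higher value lay between 5 and 5.25, 27.9% were 2-fold apart, against 27.6% of the 352 genes just under it, between 4.75 and 5.

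**Figure D1:**
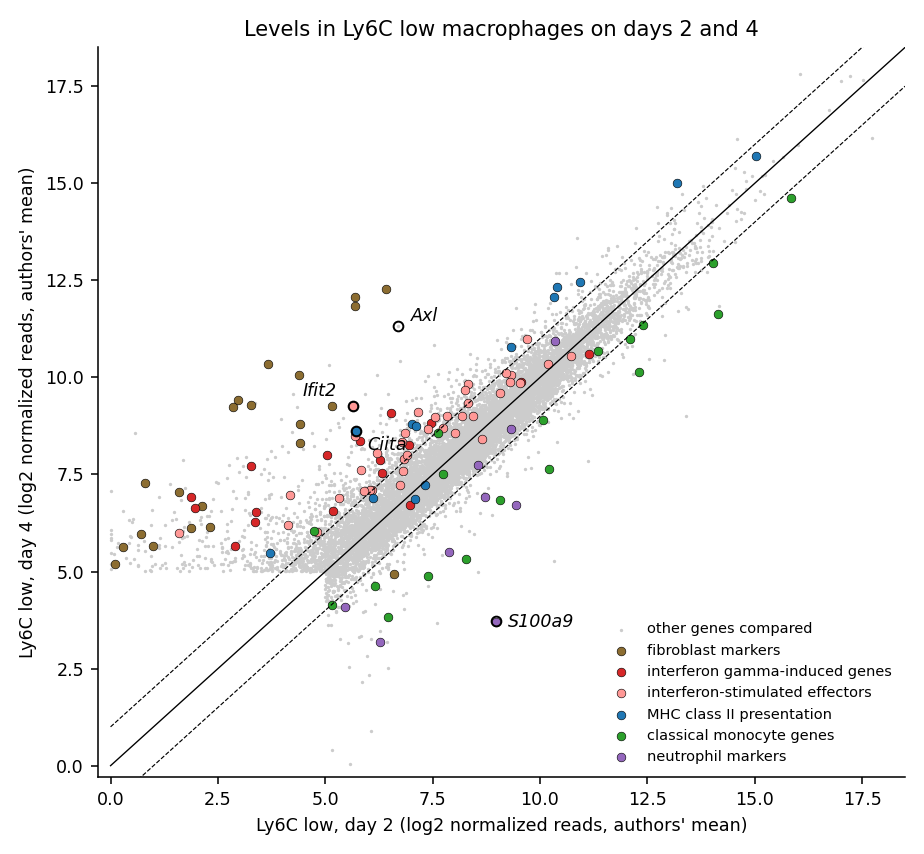
Log2 normalised reads (authors' mean) in Ly6C low macrophages on day 2 (horizontal axis) and day 4 (vertical axis), 1 point per gene compared. The solid line marks equal levels and the dashed lines a 2-fold difference. Most fibroblast markers (20 of 21) and most interferon gamma-induced genes lie above the lines, while classical monocyte genes and neutrophil markers lie mostly below, down to S100a9 at 8.97 on day 2 and 3.71 on day 4.

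Genes known from macrophages were at high levels on both days. Csf1r, the receptor for the growth factor CSF1, was at 13.31 on day 2 and 14.71 on day 4, and the adhesion receptor gene Emr1 (Adgre1 in current usage) was at 13.06 and 13.69. The lysosomal marker Cd68 was at 14.01 and 14.00, and the integrin gene Itgam was at 13.60 and 13.01. The neutrophil column of day 1 also held these genes at high levels, with Csf1r at 13.27, Emr1 at 12.22, Cd68 at 13.29 and Itgam at 14.67, so their presence alone does not set the Ly6C low cells apart. Ly6c2, which encodes the protein used for the sort, was at 6.16 and 4.64, against 9.87 and 10.56 in Ly6C high cells. Pparg was at 8.14 and 8.45, a difference of 0.31.

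Markers of cells outside the gate were also in the columns, and those of fibroblasts had the highest median difference of the 43 gene lists. Of 22 fibroblast markers, 21 were compared, 20 were at least 2-fold higher on day 4 and 1 was lower, with a median difference of 5.33 (2.72 with a pseudocount of 32). The collagen genes Col1a1 (5.68 on day 2, 12.07 on day 4) and Col5a1 (2.96 and 9.41) and the matricellular gene Postn (3.67 and 10.35) were among them. With a minimum of 5 in both columns 4 markers were compared, and all 4 were higher, with a median of 6.01. The other markers that were higher passed the minimum only through day 4 and could not have been counted as lower. Pi16, a marker of resting fibroblasts, went the other way, at 6.59 and 4.93. It was also at 7.78 in the neutrophil column of day 1, where Col1a1 was at 3.69. Its level alone thus does not set fibroblasts apart here. The summed level of the list on the log2 scale was 8.80 on day 2 and 14.24 on day 4, and it was 11.14 and 16.25 in Ly6C high cells, where fibroblast markers were higher on day 4 as well. No fibroblast marker was listed at 0 in either Ly6C low column.

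Genes of muscle progenitors and fibres formed the next group. Of 16 members 9 were compared, and 8 were at least 2-fold higher on day 4. All 9 were under a log2 value of 5 on day 2 and passed the minimum only through day 4. None could therefore have been counted as lower. Myog, the transcription factor of differentiating myoblasts, was listed at 0 on day 2 and was at 5.98 on day 4. The adhesion gene Cdh15 was listed at 0 and then at 6.07, and the acetylcholine receptor subunit gene Chrna1 at 0 and then at 5.49. In Ly6C high cells the levels of Myog, Cdh15 and Chrna1 on day 4 were lower, at 3.39, 4.45 and 3.77. The list had 6 members listed at 0 on day 2 and none on day 4, and its summed level was 5.86 and 9.60.

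Imprinted genes that are active in growing tissues stood in the same range, with 7 of the 8 compared (of 9) at least 2-fold higher and a median of 5.17. H19, a long noncoding RNA, was at 0.57 on day 2 and 8.57 on day 4, the largest difference among the genes compared. Igf2, the growth factor gene next to H19, was at 0.44 and 6.33, the zinc finger gene Peg3 at 0.96 and 6.57, and the noncoding Meg3 at 0.18 and 5.73. Most of these genes were low on day 2, and Plagl1 (5.05 and 5.29) was the 1 member that reached 5 in both columns. Fibroblast and muscle markers were higher in the same column, and their part in these values was not tested.

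The remaining lists of other cells were smaller in level or in difference. Endothelial markers had none of 6 compared (of 16) 2-fold apart in Ly6C low cells. Their summed level there was 10.12 on day 2 and 10.74 on day 4, and it was 10.12 in the neutrophil column of day 1. Most of the Ly6C low sum came from Eng (9.01 and 9.63) and Vwf (7.75 and 8.57), which neutrophils held at 7.67 and 8.93. The sum alone thus does not set endothelial cells apart here. In Ly6C high cells 16 of 16 endothelial markers were higher and the summed level was 10.66 and 13.03. Of the pericyte markers, 4 of 7 compared (of 10) were higher, led by Notch3 (3.60 and 6.87) and Pdgfrb (3.73 and 7.01). Of the B cell markers, 2 of 10 were compared and both were higher, with the antibody heavy chain gene Ighm at 7.86 and 9.96. Of 12 mast cell and eosinophil markers 6 were compared, 3 were higher and 1 was lower. The protease genes were among the higher, with Cpa3 at 4.17 and 6.23 and Cma1 at 5.21 and 7.26, whereas Hdc, the histamine-forming enzyme, was at 7.85 and 5.50. T and NK cell markers had 2 of 20 members compared and none 2-fold apart, and plasmacytoid dendritic cell markers had 5 of 13 compared and none 2-fold apart. The platelet chemokine genes Ppbp (10.32 and 5.27) and Pf4 (13.41 and 11.82) were the only members of 13 erythroid and platelet genes that were compared, and both were lower. All gene groups below were measured in the same columns, and the part of other cells in them was not tested unless a value is given. The count of each list stands beside 9.23% of all genes compared that were higher and 2.16% that were lower. In a sorted population measured in bulk, fewer cells of a type and less RNA per cell cannot be told apart.

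**Figure D2:**
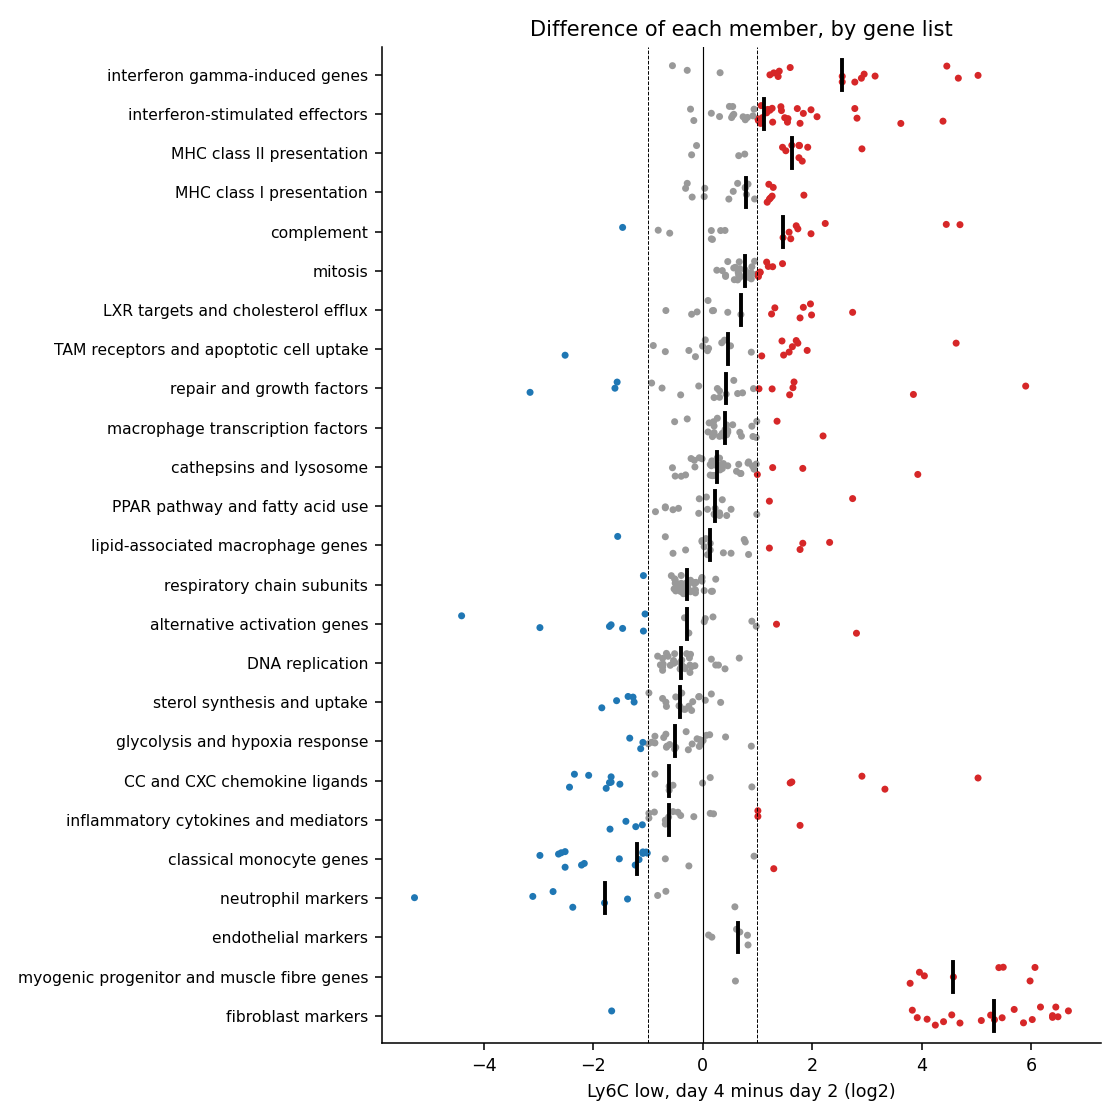
Day 4 minus day 2 in Ly6C low macrophages on the log2 scale (horizontal axis) for the compared members of the gene lists (vertical axis), 1 point per gene and a bar at each list's median. Fibroblast markers have the highest median shown (5.33), and neutrophil markers the lowest (-1.79).

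Interferon-responsive genes were higher on day 4 as a group. Cells that sense interferon switch on antiviral effectors through STAT and IRF transcription factors, and interferon gamma adds a set of GTPases and chemokines. Of 39 antiviral effectors 38 were compared, 24 were at least 2-fold higher on day 4, none was lower, and the median difference was 1.13. Of 21 genes induced chiefly by interferon gamma 17 were compared, 14 were higher, none was lower and the median was 2.55. Both shares, 63.2% and 82.4%, stand beside 9.23% of all genes compared.

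Ifit2, which encodes a protein that binds viral RNA, was at 5.65 on day 2 and 9.27 on day 4, a 12.3-fold difference, with about 105 and 1436 reads per library behind it. Its relative Ifit3 was at 5.68 and 8.50, and Ifi44 at 1.60 and 5.98. The GTPase gene Mx2 (4.12 and 6.21) and the DNA sensor family gene Ifi203 (7.15 and 9.12) were also higher. The effectors with the highest levels were nearly flat or modestly higher, with the membrane protein gene Ifitm3 at 10.72 and 10.56, Ifi27l2a at 10.18 and 10.34 and Parp14 at 9.70 and 10.98.

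Among the genes of the interferon gamma set, Cxcl9, a chemokine that draws T cells, was at 1.88 on day 2 and 6.92 on day 4. The GTPase gene Iigp1 (1.97 and 6.63) and the protease inhibitor gene Serpina3g (3.26 and 7.72) were higher too. So were 2 genes that the authors list as Gbp5 (5.04 and 8.0) and Gbp6 (3.38 and 6.53). In current usage their identifiers are named Gbp2b and Gm43302. The 3 members that were not 2-fold apart were Fcgr1, a high-affinity Fc receptor gene (11.14 and 10.60), the feedback inhibitor Socs1 (6.98 and 6.71) and Cd274, which encodes PD-L1 (9.56 and 9.88). Many of the others were low on day 2, and among members that reached 5 in both columns the median was 1.38.

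The regulators differed less than their targets. Irf7 was at 8.52 on day 2 and 10.04 on day 4, Stat2 at 8.22 and 9.26 and Irf4 at 7.88 and 8.91. Of 18 regulators and receptors 16 were compared, and 4 were 2-fold higher. The receptor genes Ifnar1 (11.80 and 11.46), Ifnar2 (10.69 and 10.94), Ifngr1 (9.88 and 10.40) and Ifngr2 (10.80 and 11.10) were not 2-fold apart. In Ly6C high cells 18 of 38 effectors and 17 of 20 interferon gamma-induced genes were 2-fold higher on day 4. On day 4 the level of Ifit2 was 9.27 in Ly6C low and 8.92 in Ly6C high cells, and on day 2 it was 5.65 and 6.40.

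**Figure D3:**
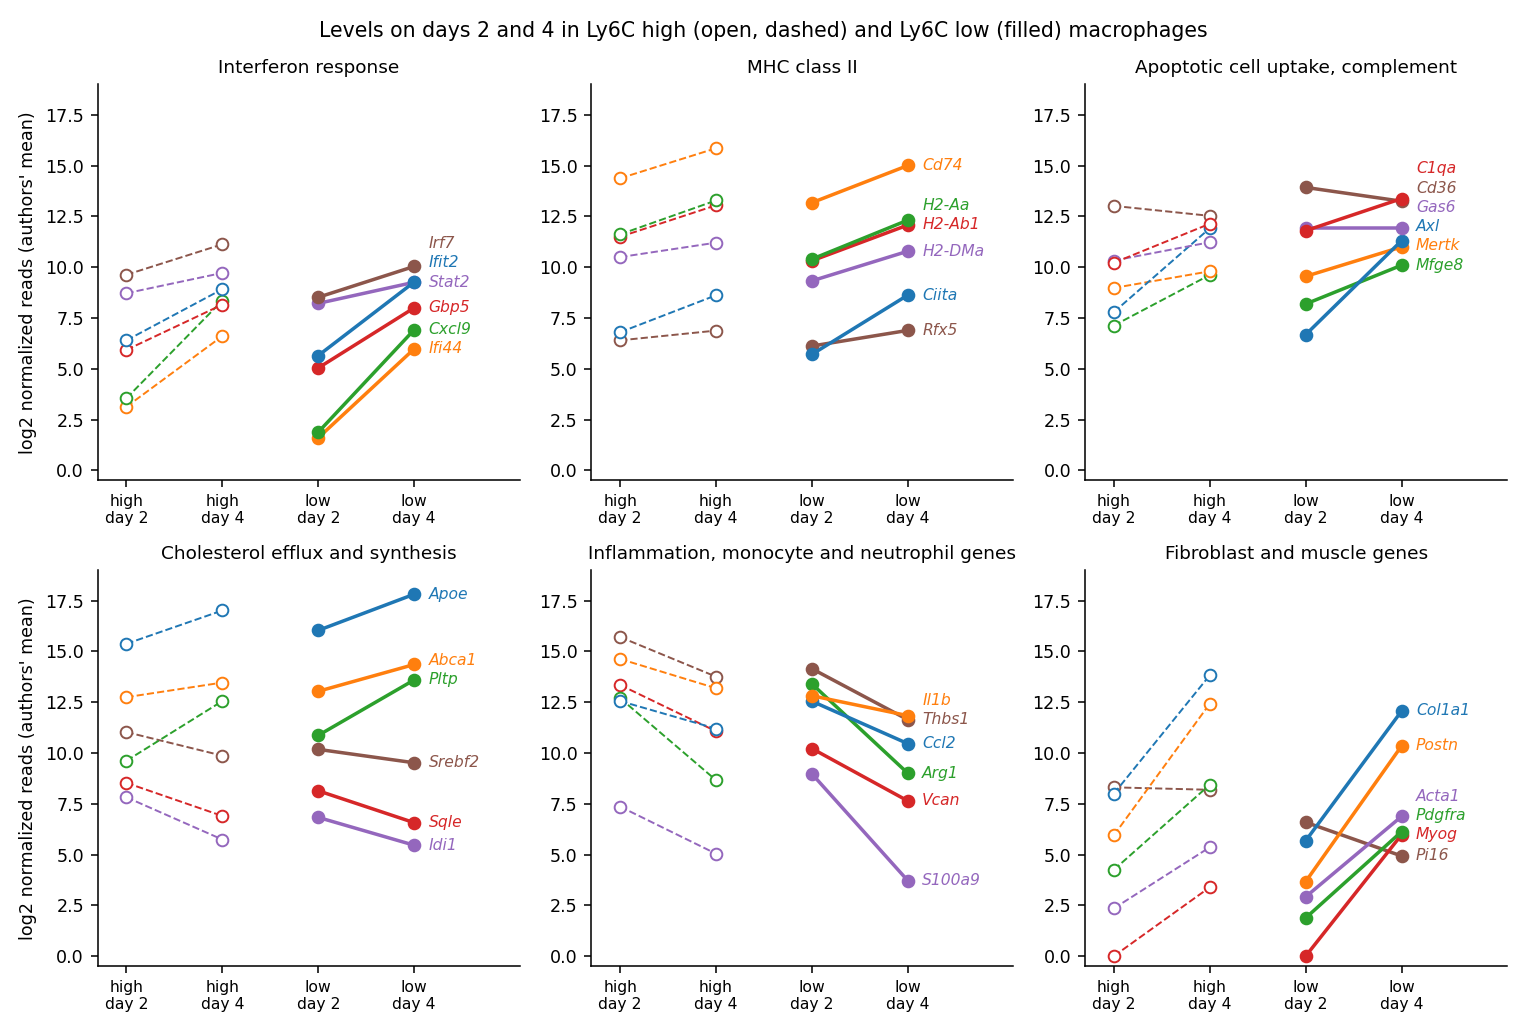
Log2 normalised reads (authors' mean, vertical axis) of named genes on days 2 and 4 in Ly6C high (open circles, dashed) and Ly6C low (filled circles, solid) macrophages, 1 panel per theme, with no error bars because the table has 1 value per group. Ifit2 goes from 5.65 to 9.27, Cd74 from 13.18 to 15.01 and S100a9 from 8.97 to 3.71 in Ly6C low cells, with the same directions in Ly6C high cells.

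The interferon-stimulated response element is the DNA motif that IRF proteins bind. It was searched on both strands as GAAANNGAAA in RefSeq promoter windows of GRCm38.p6, from 250 bases before to 50 after the start. These windows are from the C57BL/6J reference, not from DBA/2J. Of the 28 antiviral effectors with a window 19 (67.9%) held a match, as did 11 of 15 interferon gamma-induced genes (73.3%), against 333 of 8409 genes compared (4.0%) and 4.0% of all windows. The following stretches of 100 bases, written 5′ to 3′ on the gene's strand, show how the matches sit in effectors and in a GTPase gene. Capitals mark the motif or its reverse complement, and the genes were chosen after their matches were seen.
Ifit1, chr19:34640749-34640848, plus strand: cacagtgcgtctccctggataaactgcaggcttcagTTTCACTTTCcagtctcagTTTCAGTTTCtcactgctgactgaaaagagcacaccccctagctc
Ifit3, chr19:34583345-34583444, plus strand: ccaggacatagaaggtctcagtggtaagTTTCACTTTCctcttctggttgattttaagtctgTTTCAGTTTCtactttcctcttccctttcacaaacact
Isg15, chr4:156200836-156200935, minus strand: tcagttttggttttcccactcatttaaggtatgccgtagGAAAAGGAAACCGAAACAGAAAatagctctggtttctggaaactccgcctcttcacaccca
Gbp2, chr3:142620559-142620658, plus strand: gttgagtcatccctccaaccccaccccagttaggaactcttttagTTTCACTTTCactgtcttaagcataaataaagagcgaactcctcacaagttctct

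Ifit1 was at 5.33 on day 2 and 6.89 on day 4, Isg15, a ubiquitin-like protein gene, at 6.84 and 7.90, and the GTPase gene Gbp2 at 6.53 and 9.08. The Ifit1 and Ifit3 stretches each hold 2 separate matches, and that of Isg15 holds 3 that overlap in 1 run. Holding a match did not go with a larger difference inside the lists. Effectors with a match had a median difference of 1.06 (19 genes) and those without had 1.43 (9 genes). Over all genes compared with a window the medians were 0.22 with a match and 0.02 without.

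Genes of antigen presentation on MHC class II were higher on day 4. Of 15 genes 13 were compared, 9 (69.2%) were at least 2-fold higher, none was lower and the median was 1.63. Ciita, the transcriptional coactivator on which class II expression depends, was at 5.71 on day 2 and 8.63 on day 4, a 7.54-fold difference with about 110 and 921 reads per library. Its targets H2-Aa (10.40 and 12.32), H2-Ab1 (10.32 and 12.08) and H2-Eb1 (10.94 and 12.46), which encode the peptide-binding chains, were 2.9- to 3.8-fold higher.

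Cd74, the chaperone of the class II chains, was at 13.18 and 15.01, and the peptide loading genes H2-DMa (9.33 and 10.79) and H2-DMb1 (7.02 and 8.79) were higher too. The factors that bind class II promoters were not 2-fold apart, with Rfx5 at 6.12 and 6.89, Rfxank at 7.08 and 6.87 and Rfxap at 7.33 and 7.22. Cd74 and H2-Ab1 were above these levels in Ly6C high cells on both days, at 14.38 and 15.86 and at 11.50 and 13.05. Ciita was at 8.62 there on day 4, nearly the level of Ly6C low cells.

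Class II promoters carry a Y box bound by NF-Y, which was searched as CTGATTGG on both strands. It was found in 2 of 9 class II genes with a window (22.2%) and in 6.4% of the genes compared. The share was higher in MHC class I genes (7 of 17, 41.2%), sterol genes (31.2%) and mitosis genes (23.1%). It was lower in replication genes (19.2%), interferon gamma-induced genes (13.3%) and antiviral effectors (0.0%). A match was thus not particular to class II genes. Both class II genes with a match encode peptide-binding chains, and the box lies within 100 bases of the start in each.
H2-Aa, chr17:34287824-34287923, minus strand: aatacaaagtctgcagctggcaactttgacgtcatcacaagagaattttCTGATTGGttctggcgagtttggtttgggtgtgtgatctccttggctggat
H2-Eb1, chr17:34305759-34305858, plus strand: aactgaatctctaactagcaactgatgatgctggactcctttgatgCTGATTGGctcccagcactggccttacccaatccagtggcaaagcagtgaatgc

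Dendritic cells also express class II genes, so their markers are given beside these values. Of 15 markers of conventional dendritic cells 11 were compared and 3 were 2-fold higher, the actin bundling gene Fscn1 (5.01 and 7.42), the transcription factor Batf3 (3.12 and 5.17) and the RNA sensor Tlr3 (5.28 and 6.50). The summed level of that list was 11.60 on day 2 and 12.09 on day 4, and most of it came from Cadm1 (10.54 and 11.12) and Wdfy4 (10.11 and 10.25), which neutrophils of day 1 also held, at 10.19 and 10.89. Zbtb46, a transcription factor of the lineage, was at 5.54 and 5.94 and the receptor gene Flt3 at 4.66 and 5.53. Xcr1, a chemokine receptor gene, was at 4.43 and 4.79 and the lectin gene Clec9a at 2.87 and 3.90. Their part in the class II values was not tested. Costimulatory genes had none of 8 compared (of 10) 2-fold apart, with Cd86 at 10.65 and 11.08 and Cd40 at 8.48 and 9.39.

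MHC class I genes were higher by less. Of 20 genes, all compared, 7 (35.0%) were at least 2-fold higher, none was lower and the median was 0.79. The class I chain genes H2-K1 (10.98 and 12.21) and H2-T23 (9.37 and 11.22) were 2-fold higher, while H2-D1 (13.01 and 13.97) and B2m, the shared light chain (13.68 and 14.51), were not. Class I genes are closely similar, and how the counting shared reads among them is not given in the sources used here. Nlrc5, the class I counterpart of Ciita, was at 8.32 and 9.10.

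Receptors for dying cells differed strongly in part. Axl and Mertk are receptor kinases that recognise phosphatidylserine on dead cells through the bridging proteins Gas6 and protein S. Of 26 genes of this uptake machinery 22 were compared, 9 (40.9%) were at least 2-fold higher on day 4 and 1 was lower, with a median of 0.46. Axl was at 6.68 on day 2 and 11.31 on day 4, a 24.8-fold difference, with about 215 and 5937 reads per library. Mertk was at 9.55 and 11.00. Of the bridging proteins, Gas6 was at 11.94 on both days, Pros1, which encodes protein S, was at 9.30 and 10.38, and Mfge8 was at 8.19 and 10.10.

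Axl is also expressed by fibroblasts and endothelial cells. Fibroblast markers were higher on day 4 in the same columns, and their part in the Axl value was not tested. The other uptake genes were uneven. The scavenger receptor gene Stab2 was at 9.10 and 10.74, whereas Stab1 was at 14.58 and 14.33, Cd36 at 13.93 and 13.25 and Lrp1 at 14.47 and 14.81. Thbs1, a bridging and matrix protein gene, was the 1 gene lower, at 14.15 and 11.64.

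Complement genes were higher for 9 of 17 compared (of 19), which is 52.9%, with 1 lower (5.88%) and a median of 1.47. The median was 0.37 among members that reached 5 in both columns. The chains of C1q, which binds dying cells and starts the classical pathway, were each about 3-fold higher, with C1qa at 11.80 on day 2 and 13.38 on day 4, C1qb at 11.58 and 13.29 and C1qc at 11.59 and 13.33. Itgax, a complement receptor subunit gene that encodes CD11c, was at 10.44 and 12.68. Serping1, the C1 inhibitor gene (2.71 and 7.41), and the protease gene C1s (1.71 and 6.15) had the largest differences. Serping1 and C1s are also fibroblast products, and the fibroblast markers given above were higher in the same column. C5ar1, the receptor for the fragment C5a, was lower, at 11.16 and 9.70.

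Lipid genes split between export and synthesis. LXR receptors sense oxidised cholesterol and switch on its export, while SREBP2 drives cholesterol synthesis when cells lack it. Of 17 LXR targets and export genes 15 were compared, 7 (46.7%) were at least 2-fold higher on day 4, none was lower and the median was 0.70. Of 24 genes of sterol synthesis and uptake 23 were compared, none was 2-fold higher, 5 (21.7%) were lower, 20 were below 0 and the median was -0.42. The count of 5 was 2 with a minimum of 7 or a pseudocount of 32, with medians of -0.43 and -0.40.

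On the export side, Apoe, the apolipoprotein that carries cholesterol out of the cell, was at 16.04 on day 2 and 17.82 on day 4. The transporter genes Abca1 (13.04 and 14.36) and Abcg1 (9.89 and 11.89) and the lipid transfer gene Pltp (10.87 and 13.60) were higher as well. The LXR gene Nr1h3 itself was at 8.87 and 9.32. On the synthesis side, Sqle, which forms squalene epoxide, was at 8.14 and 6.57 and the isomerase gene Idi1 at 6.83 and 5.46. The regulator Srebf2, at 10.18 and 9.52, was lower by less than 2-fold. In Ly6C high cells 8 of 23 sterol genes were 2-fold lower on day 4, with a median of -0.75.

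Fatty acid and PPAR pathway genes showed little difference. Of 23 genes 20 were compared, 2 were higher and none lower, and the median was 0.22. These were the lipase inhibitor gene Angptl4 (5.70 and 8.43) and the lipoprotein lipase gene Lpl (12.74 and 13.96). Plin2, a lipid droplet coat gene, was at 14.56 and 14.03. Genes known from lipid-laden macrophages had 4 of 20 higher and 1 lower, with a median of 0.14. The matrix metalloelastase gene Mmp12 was at 10.37 and 12.69 and the proton pump subunit gene Atp6v0d2 at 9.85 and 11.68, while Trem2, a lipid receptor, was at 12.31 and 13.09. Spp1, the secreted protein osteopontin, was the 1 gene lower, at 17.72 and 16.18.

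These differences moved the rank order of the most abundant protein-coding transcripts, taken per kilobase of exon. On that scale Spp1 went from rank 1 on day 2 to rank 5 on day 4, Apoe from rank 6 to rank 2, and Lyz2, the lysozyme gene, from rank 2 to rank 1. Cd74 went from rank 48 to rank 13, Sepp1, a selenium carrier gene, from rank 29 to rank 11, and Pf4 from rank 15 to rank 51. The lysosomal genes Psap and Ctsd held ranks 3 and 4 on both days.

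Lysosomal genes as a list differed little, with 4 of 39 at least 2-fold higher, none lower and a median of 0.27. Ctsb (17.52 and 17.66), Psap (17.01 and 17.63) and Ctsd (16.73 and 16.87) held their levels within 2-fold. The protease genes Ctsf (4.14 and 8.07) and Ctsk (9.23 and 10.51) were higher.

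Genes that mark classical monocytes were lower on day 4. Of 19 genes 18 were compared, 14 (77.8%) were at least 2-fold lower and 1 was higher, with a median of -1.20, beside 2.16% of all genes compared. Chi3l3 (Chil3 in current usage), a chitinase-like secreted protein gene, was at 8.28 on day 2 and 5.31 on day 4, and the proteoglycan gene Vcan at 10.22 and 7.64. Fn1, fibronectin, was at 15.85 and 14.62, and Ccr2, the receptor that brings monocytes into tissue, was at 11.35 and 10.67. Ly6a, at 4.74 and 6.05, was the 1 gene higher. In Ly6C high cells 9 of 19 of these genes were 2-fold lower, with a median of -0.71.

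Neutrophil markers were lower for 6 of 9 compared (of 19), none was higher and the median was -1.79. Among members that reached 5 in both columns 3 were lower. S100a9, a subunit of the calcium-binding complex calprotectin, was at 8.97 on day 2 and 3.71 on day 4, a 38.2-fold difference, with about 1049 and 30.6 reads per library. Its partner S100a8 was at 7.87 and 5.50, the activating receptor gene Trem1 at 9.43 and 6.71 and the chemokine receptor gene Cxcr2 at 5.46 and 4.08. In the neutrophil column of day 1, S100a9 was at 15.49. The summed level of the list was 12.09 and 11.50, and 4 of 19 markers were listed at 0 on day 2 and 6 on day 4. Csf3r, the receptor for the growth factor G-CSF, was at 10.34 and 10.93. The part of neutrophil RNA in these values was not tested.

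Inflammatory mediators were mixed. Of 23 genes 19 were compared, 3 were at least 2-fold higher, 4 were lower and the median was -0.62, with 14 below 0. Il1b was at 12.82 on day 2 and 11.84 on day 4, Tnf at 11.69 and 11.07 and the antagonist Il1rn at 13.64 and 12.95, all less than 2-fold apart. The prostaglandin synthase gene Ptges (6.61 and 4.92), the cytokine genes Csf3 (6.47 and 5.07) and Lif (7.10 and 5.89) and the receptor gene Clec4e (13.28 and 12.18) were 2-fold lower. Il6 was higher, at 4.03 and 5.81, and was at 6.40 and 9.14 in Ly6C high cells.

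Chemokine ligands also differed in both directions. Of 23 genes 20 were compared. On day 4, 8 of them (40%) were 2-fold lower and 5 higher, and the median was -0.61. The monocyte attractants Ccl2 (12.55 and 10.46) and Ccl7 (12.88 and 10.44) and the related Ccl6 (14.18 and 11.84) were 2-fold lower, as were the neutrophil attractants Cxcl3 (11.21 and 9.54) and Cxcl5 (6.82 and 5.06). The neutrophil attractants Cxcl1 (13.03 and 12.42) and Cxcl2 (13.76 and 13.22) were less than 2-fold apart. Those higher included Cxcl9, given above, the T cell attractant Ccl5 (2.71 and 6.03) and Cxcl12 (4.46 and 7.37), a stromal chemokine for which fibroblast markers in the same column apply.

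Of 18 chemoattractant receptor genes 15 were compared, of which 2 were higher (13.3%) and 6 lower (40%). Cx3cr1, the fractalkine receptor of patrolling and tissue macrophages, was at 9.0 and 10.97, and Cxcr3, the receptor for CXCL9, at 3.52 and 5.23. The formyl peptide receptor gene Fpr1 (6.27 and 3.46) and the chemokine receptor gene Ccr1 (10.77 and 8.96) were lower.

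Genes of alternative activation were lower in part. Of 20 genes 16 were compared, 7 (43.8%) were at least 2-fold lower and 2 higher, with a median of -0.29. With a minimum of 7 or of 5 in both columns, the medians were -1.05 and -0.69 and none was higher. Arg1, the arginine-degrading enzyme of wound macrophages, was at 13.40 on day 2 and 9.0 on day 4, a 21-fold difference. The chemokine gene Ccl24 (9.22 and 7.53) and the scavenger receptor genes Msr1 (13.44 and 11.77), Cd163 (11.59 and 10.13) and Mrc1 (14.53 and 13.48) were lower too. Retnla, a secreted protein gene induced by interleukin 4, went the other way, at 2.93 and 5.74. Arg1 in Ly6C high cells was at 12.70 and 8.66.

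Genes associated with resident macrophages divided, 6 of the 17 compared (of 23) being higher (35.3%) and 5 lower (29.4%). Over all genes compared, 9.23% were higher and 2.16% lower. The higher ones were the C1q chains, Siglec1, a sialic acid-binding adhesion receptor (9.20 and 10.91), Sepp1 (14.59 and 16.15) and the lectin gene Fcna (6.20 and 7.25). The lower ones included Lyve1, a hyaluronan receptor (9.24 and 7.45), Cd163 and Mrc1. The transcription factor gene Maf was nearly level, at 10.64 and 10.85. Of all 27 macrophage transcription factors compared (of 28), 2 were 2-fold higher, Spic, which is tied to iron-recycling macrophages (5.55 and 7.75), and the clock repressor Nr1d1 (7.68 and 9.03).

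Secreted repair factors differed in both directions. Of 25 genes 23 were compared, 7 (30.4%) were at least 2-fold higher and 3 lower, with a median of 0.43. Over all genes compared, 9.23% were higher and 2.16% lower. The largest difference of the list was 5.90, that of Igf2, given above with the imprinted genes. The part of fibroblast and muscle cells in it was not tested. Gdf15, a stress-induced member of the TGF-β family, was at 6.21 on day 2 and 10.06 on day 4, a 14.4-fold difference. Igf1, a growth factor for muscle progenitors, was at 9.26 and 10.85, and the platelet-derived growth factor genes Pdgfb (6.91 and 8.57) and Pdgfa (7.65 and 8.92) were also higher. The EGF receptor ligands Ereg (5.98 and 2.82) and Areg (7.48 and 5.88) and the activin subunit gene Inhba (6.82 and 5.26) were lower. Tgfb1, at 11.60 and 12.25, and the granulin gene Grn, at 14.80 and 15.07, were less than 2-fold apart. The levels of Igf1 in Ly6C high cells were 6.90 and 9.72, below those of Ly6C low cells on both days.

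Matrix proteases and their inhibitors had 4 of 20 compared (of 21) higher (20%) and 2 lower (10%). Over all genes compared, 9.23% were higher and 2.16% lower. With a minimum of 5 in both columns 16 were compared, 1 was higher and 1 lower. The plasminogen activator inhibitor gene Serpinb2 was at 7.61 and 3.67 and the metalloprotease inhibitor gene Timp1 at 9.65 and 7.64. The gelatinase gene Mmp2 (2.93 and 7.93), the collagen crosslinking gene Lox (2.77 and 7.75) and Timp3 (2.58 and 5.19) were higher beside the fibroblast markers, and the part of those cells was not tested. Mmp2, Lox and Timp3 passed the minimum only through day 4, and Serpinb2 only through day 2.

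Cell cycle genes separated by phase. Of 32 mitosis genes, all were compared and all were above 0 on day 4 minus day 2, 8 (25%) by at least 2-fold, with a median of 0.78. The count of 8 was 3 with a pseudocount of 32 and 5 after quantile normalization. Of 32 DNA replication genes, 27 were below 0, none was 2-fold apart and the median was -0.39. Over all genes compared the median was 0.03, and each list lay on its own side of it.

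Mki67, the proliferation marker, was at 10.12 on day 2 and 11.29 on day 4, the cyclin gene Ccnb2 at 6.98 and 8.26 and the centromere protein gene Cenpf at 6.19 and 7.65. Foxm1, a transcription factor of mitotic genes, was at 7.34 and 8.01. On the replication side, the helicase subunit gene Mcm6 was at 9.69 and 8.96, the polymerase clamp gene Pcna at 10.36 and 9.96 and the transcription factor E2f1 at 8.64 and 8.30. In Ly6C high cells both lists were higher on day 4, mitosis genes with a median of 1.5 and replication genes with 0.46. The levels of Mki67 there were 8.87 and 10.23, and those of Mcm6 7.66 and 8.20. The separation of the lists by sign was thus seen in Ly6C low cells and not in Ly6C high cells, a difference that was not tested.

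**Figure D4:**
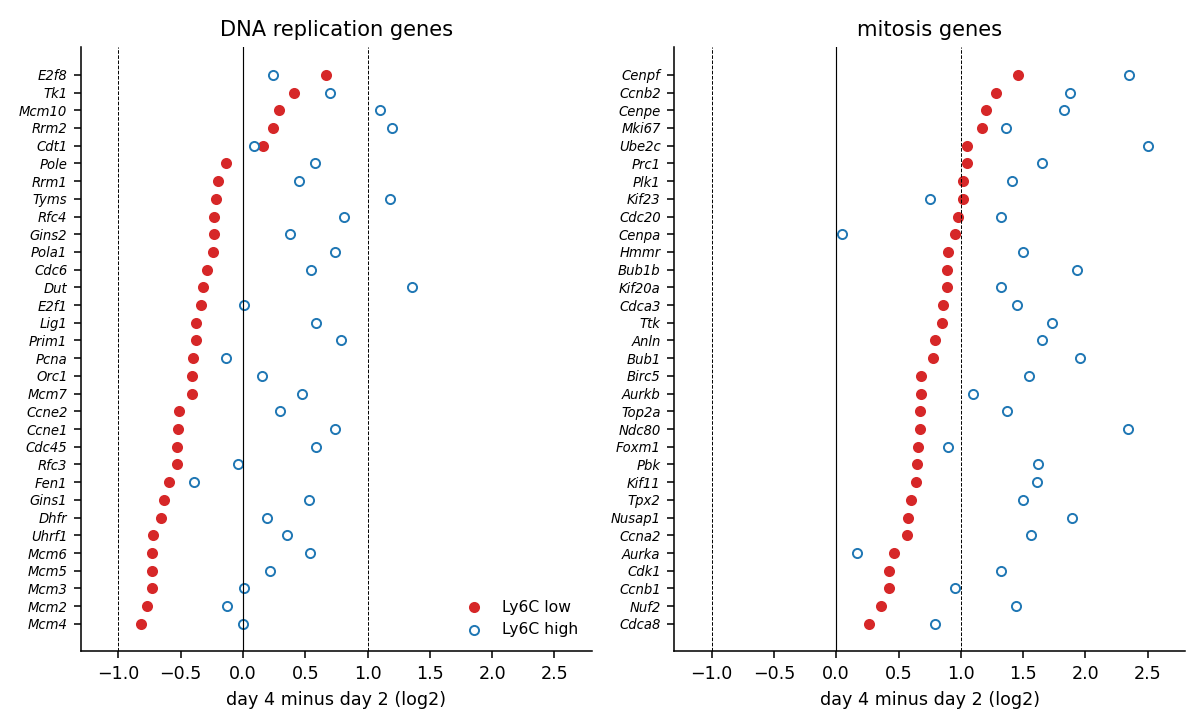
Day 4 minus day 2 (log2 scale, horizontal axis) of each DNA replication and mitosis gene (vertical axis) in Ly6C low (filled) and Ly6C high (open) macrophages, with dashed lines at a 2-fold difference. In Ly6C low cells the replication genes have a median of -0.39 and the mitosis genes of 0.78, and in Ly6C high cells the medians are 0.46 and 1.5.

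Promoters of mitosis genes carry an element called CHR, searched as TTTGAA on both strands. It was found in 20 of 26 mitosis genes with a window (76.9%), in 14.2% of the genes compared and in 20.2% of all windows. Replication genes were searched for the E2F motif as TTTGGCGC or TTTCCCGC, which was found in 8 of 26 (30.8%), against 3.6% of the genes compared. A match describes the letters of the window only. The stretches show the CHR in Mki67, where it occurs at 2 places, and in Cdc20, and the E2F motif at 2 places in Mcm6, with the motifs in capitals. They were chosen after their matches were seen.
Mki67, chr7:135716434-135716533, minus strand: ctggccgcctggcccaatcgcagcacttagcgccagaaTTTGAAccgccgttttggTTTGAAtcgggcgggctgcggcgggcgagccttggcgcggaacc
Cdc20, chr4:118437344-118437443, minus strand: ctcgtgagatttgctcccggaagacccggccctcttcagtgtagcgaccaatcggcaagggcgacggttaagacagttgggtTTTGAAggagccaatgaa
Mcm6, chr1:128359731-128359830, minus strand: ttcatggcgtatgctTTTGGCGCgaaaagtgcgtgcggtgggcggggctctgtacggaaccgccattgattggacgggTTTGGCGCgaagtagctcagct

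Cdc20, an activator of the mitotic exit machinery, was at 5.88 on day 2 and 6.86 on day 4. Mitosis genes with a CHR had a median difference of 0.89 (20 genes) and those without had 0.63 (6 genes). Replication genes with the E2F motif had a median of -0.47 (8 genes) and those without had -0.36 (18 genes).

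Genes of energy metabolism were mostly slightly lower on day 4. Of 28 genes of glycolysis and the hypoxia response 26 were compared, 3 were at least 2-fold lower, none was higher and the median was -0.50, with 21 below 0. The lactate exporter gene Slc16a3 (10.18 and 8.86), the enolase gene Eno1 (11.05 and 9.92) and Hif1a, the hypoxia-induced transcription factor (12.22 and 11.13), were the 3 lower. Of 35 subunits of the respiratory chain 31 were below 0, with a median of -0.28, and Cycs, cytochrome c, was the 1 gene 2-fold lower, at 8.69 and 7.61.

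Iron and antioxidant genes were mostly level. Of 22 compared (of 25), 3 (13.6%) were higher and none lower, with a median of 0.13. The share lay near the 9.23% of all genes compared. With a minimum of 5 in both columns, 2 of 21 were higher. Slc40a1, ferroportin, the iron exporter of macrophages, was at 6.27 on day 2 and 9.03 on day 4. Cp, the ferroxidase ceruloplasmin, was at 4.86 and 7.63 and passed the minimum only through day 4. The ferritin genes Ftl1 (15.65 and 15.69) and Fth1 (15.43 and 15.56) and the haem-degrading gene Hmox1 (13.75 and 13.77) were level.

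Stress and handling genes were also checked. Of 24 immediate early genes 1 was 2-fold higher, Egr1 at 10.18 and 11.80, with a median of 0.37. Of 18 heat shock genes 3 were higher, among them the inducible HSP70 genes Hspa1a (11.54 and 13.14) and Hspa1b (11.44 and 13.13), and the median was 0.00. How cells were handled on each day is not given in the sources used here.

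Among innate sensors, 7 of 27 (25.9%) were at least 2-fold higher (4 with a pseudocount of 32) and 2 (7.41%) lower. Those higher included the endosomal receptors of nucleic acids Tlr9 (6.95 and 8.75), Tlr8 (9.02 and 10.28) and Tlr3, given above. The surface receptor genes Tlr2 (12.86 and 13.10) and Tlr4 (8.87 and 8.51) were within 2-fold. The C-type lectin genes went both ways, with Clec7a, the receptor for fungal glucans, at 11.18 and 12.49 and Clec4d at 12.02 and 10.79. Of 19 Fc and scavenger receptor genes 18 were compared, and 3 were lower and 2 higher. Those higher were the Fc receptor gene Fcgr4 (7.90 and 9.21) and Mrc2, a collagen receptor gene that fibroblasts also express (1.39 and 7.25).

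The same days were set side by side in Ly6C high macrophages, which share no column with the comparison above. There 1761 of 12348 genes compared were at least 2-fold higher on day 4 (14.3%) and 247 were lower (2.00%). Of the 11551 genes compared in both subsets, 1001 were 2-fold higher in Ly6C low and 1166 in Ly6C high cells, and 751 were higher in both, which is 75% of the former and 64.4% of the latter. Of 246 genes lower in Ly6C low and 224 lower in Ly6C high cells, 130 were lower in both (52.8% and 58.0%). Across these genes, which are not independent, the Pearson correlation of the differences was 0.87.

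Only 3 genes were 2-fold apart in opposite directions, and in all 3 the value was lower on day 4 in Ly6C low and higher in Ly6C high cells. Retnlg, a secreted protein gene of neutrophils, was at 6.28 and 3.19 in Ly6C low against 5.40 and 6.42 in Ly6C high cells. Lrp8, a reelin receptor gene, was at 7.15 and 5.68 against 7.88 and 9.13. Npr1, a natriuretic peptide receptor gene, was at 5.68 and 4.39 against 5.28 and 7.46. In Ly6C high cells endothelial markers were higher on day 4, and their part in the Npr1 and Lrp8 values was not tested.

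**Figure D5:**
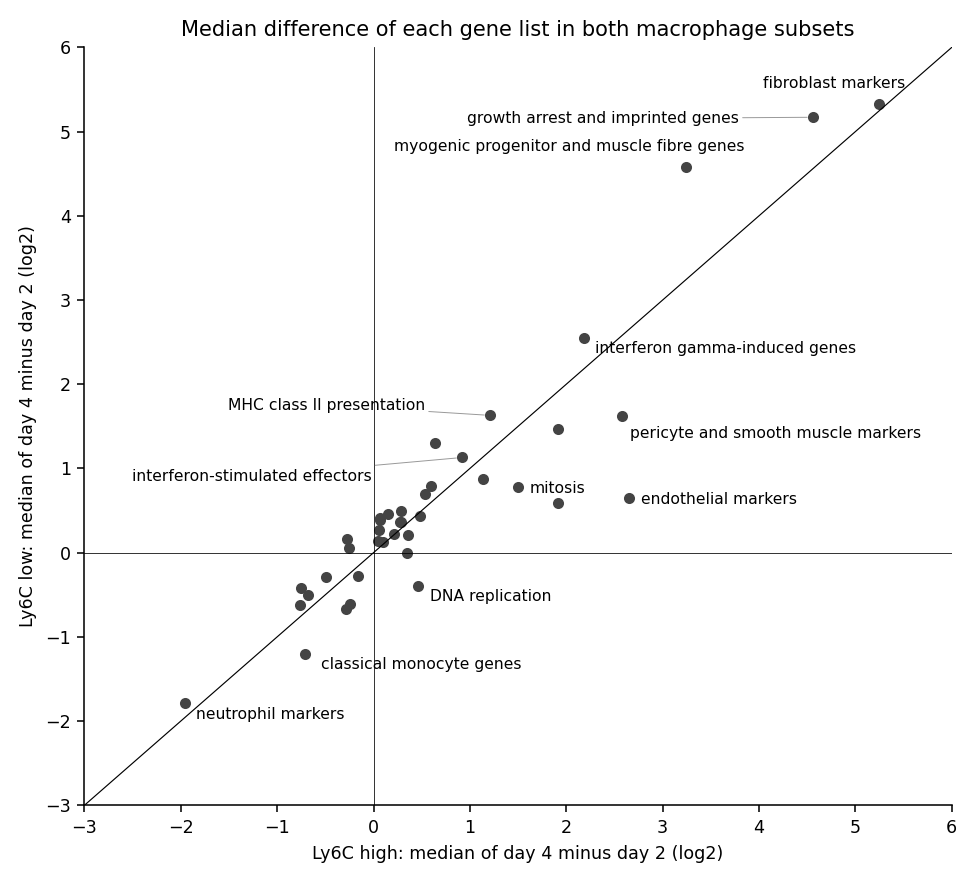
Median of day 4 minus day 2 (log2 scale) of each gene list in Ly6C high (horizontal axis) and Ly6C low (vertical axis) macrophages, 1 point per list, with a line of equal medians. DNA replication lies below 0 in Ly6C low (-0.39) and above 0 in Ly6C high cells (0.46), and endothelial markers lie far to the right, at 2.65 in Ly6C high against 0.65 in Ly6C low cells.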

How the data were processed

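RNA was sequenced from 17 samples in 6 groups, and both Ly6C low groups have 3 samples. A TruSeq kit turned poly-A RNA into libraries, per the labels' protocols. Named in the submitters' processing notes, without a role, are mm10, Cufflinks 2.0.2 and TopHat2 2.0.7. Of the normalization, no method is given in the sources used here. The authors deposited log2 values of normalised reads, 1 column per group, which were used as their group means. Low values fell in part on multiples of whole reads. From these, a read was worth 0.412 to 0.570 normalised units in the day 2 libraries and 0.422 to 0.440 in those of day 4. A total per library cannot be had from these means. Of the low values, 26.5% on day 2 and 22.6% on day 4 lay within 0.05 of a whole read product. With a wrong worth put in, 8.2 and 11.2% did. Read numbers and counting errors are therefore approximate and cover counting error only.

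Columns were subtracted with pandas 2.3.3 and numpy 2.4.6 in Python 3.11.15, with no pseudocount, and genes at least 2-fold apart were counted. The counting was tested on simulated data. The plots were drawn with matplotlib 3.10.9. Of the gene identifiers 95.3% were in GENCODE M21, which gave coordinates, exon lengths and gene classes. Symbols on several rows (3966 rows) were used once in a list.

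The genes, the 43 gene lists and the motifs were chosen with earlier results of these data known. Named genes are Ifit2, Ciita, Axl and S100a9, the up to 6 largest differences of at least 2-fold and the 3 highest levels of each list, the 12 highest and 12 lowest differences among genes that reach 7, sort markers, and regulators, receptors and ligands that define a list. Other named genes were chosen after their values were seen. A member of a list that passed the minimum only through the column where it is high had to differ, so counts describe the list and support nothing else. Alternatives were other minimums, pseudocounts of 5 and 32, median-ratio and quantile rescaling, and protein-coding genes alone. Some genes that the naming rule takes are not reported here.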

Additional observations from a re-analysis of the deposited data

How the results depend on the processing

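The counts of genes at least 2-fold apart (1346 in all, 1091 higher and 255 lower) depended on the minimum and on the pseudocount. With a minimum of 7 there were 750, of which 580 were higher and 170 lower. With a minimum of 5 in both columns there were 793 (605 and 188), and with no minimum 3235 (2780 and 455). A pseudocount of 32 gave 802 (649 and 153) and one of 5 gave 1006 and 235. Quantile normalization gave 898 higher and 403 lower, median-ratio rescaling 1154 and 238, and protein-coding genes alone 1020 and 219. The median of mast cell and eosinophil markers reversed from 1.30 to -0.15 with a minimum of 7 or of 5 in both columns, where 2 members were compared. That of chemokine receptors went from -0.67 to 0.16 under the same settings, where 11 of 15 members were compared. With a pseudocount of 32 the medians of muscle genes, imprinted genes and interferon gamma-induced genes fell to 1.44, 1.83 and 1.28. The median of T and NK cell markers (2 members) also changed sign under other settings, as did those of heat shock genes and of Fc and scavenger receptors, which lie near 0. Of 261 named genes, 173 were 2-fold apart. Of these, 27 were no longer so with a pseudocount of 32, 5 after quantile normalization (Ctsh, Il18, Mrc1, Tlr3 and Ube2c), 1 with a pseudocount of 5 (Il18) and none after median-ratio rescaling, and none reversed. No paired analysis was possible because the table has 1 column per group. Leaving out samples and a replicate block were not run for the same reason.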

Other observations

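Other genes stood far apart between the days in Ly6C low macrophages and belong to none of the lists above. They were chosen after their values were seen, except Dnase1l3, Hal and Ltb4r1. Dnase1l3, which encodes a nuclease that digests DNA of dead cells, was at 0.80 on day 2 and 7.20 on day 4, and at 0.67 and 6.02 in Ly6C high cells. Lag3, an inhibitory receptor best known from T cells, was at 5.10 and 8.65. The membrane protein genes Tmem176a (6.45 and 9.58), Tmem176b (7.53 and 10.84) and Gpr155 (5.31 and 8.82) and the epoxide hydrolase gene Ephx1 (5.93 and 9.57) were also higher. T cell markers, with 2 of 20 members compared, were at a summed level of 7.26 and 7.18. The largest part of that sum was Foxp3 (6.50 and 5.96), which the neutrophil column of day 1 held at 6.13. Cd3e (0.81 and 1.59), Cd3d (0.77 and 0.27) and Cd3g (0.57 and 0.11) were near the floor. The sum alone thus does not set T cells apart here.

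On the other side, Hal, the histidine-degrading enzyme, was at 11.11 on day 2 and 7.86 on day 4. Irg1 (Acod1 in current usage), which makes itaconate, was at 10.18 and 7.71, and at 9.79 and 9.12 in Ly6C high cells. Ltb4r1, the leukotriene B4 receptor gene, was at 8.56 and 4.98, and Nt5e, which encodes the AMP-degrading enzyme CD73, was at 8.89 and 6.47. Processed pseudogenes, which share sequence with their parent genes, had 10 of 1015 compared 2-fold higher and 18 lower, with a median of -0.05.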
